A study of Homo sapiens with 80 samples.

Results

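The 3 genes described are IFITM1, IFITM2 and IFITM3, the interferon-induced transmembrane genes that lie side by side near the end of the short arm of chromosome 11. They are 3 of 58735 genes in the RNA-seq tables, of 17792 in the PRO-seq table and of 17463 in the digital gene expression (DGE) table. The family was chosen by name from earlier results on these data: the large IFITM3 difference between lenalidomide-regrown and parental cells in the DGE libraries drew attention to it. The DGE values of the 3 genes are therefore given as a description with no test. The choice was taken to rest on DGE alone, and the RNA-seq and PRO-seq libraries, which are separate libraries, are tested on that assumption. The regrown ones come from the same cell pools as in DGE, so p-values for regrown against parental cells are not independent of the choice. Earlier results of the whole series were known when the family was chosen. Whether the RNA-seq and PRO-seq libraries weighed in the choice is therefore not known, and their p-values carry that limit too.

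IFITM proteins are small membrane proteins induced by type I and type II interferons, and they restrict the entry of enveloped viruses by acting on the membrane where virus and cell fuse. IFITM1 resides mainly at the cell surface, where it associates with the tetraspanin CD81, whereas IFITM2 and IFITM3 are carried to endosomes and lysosomes through a sorting signal in their N-terminal tail. Palmitoylation by ZDHHC20 supports IFITM3 function, and the ubiquitin ligase NEDD4 promotes its turnover. The genes arose by duplication and resemble each other closely, so short reads can be shared or misassigned between them.

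Lenalidomide directs the cereblon ubiquitin ligase to the zinc-finger proteins IKZF1 and ZFP91. The study addressed resistance to the drug in the established lines SU-DHL-1 and KI-JK, which derive from anaplastic large cell lymphoma of T-cell origin with an ALK fusion. Parental SU-DHL-1 cells were set against 3 independent pools that had regrown under rising lenalidomide and had then been kept without drug for at least 2 months. PRO-seq, which maps engaged RNA polymerase and so reads transcription itself, covered 3 parental and 3 regrown libraries. DGE, which counts the 3′ ends of transcripts, covered parental and regrown cells given DMSO or 2.5 µM lenalidomide for 18 h, with 3 libraries in each of the 4 groups. RNA-seq compared parental and regrown cells that all carried Cas9 and an inducible guide RNA against ZFP91, either without doxycycline (ZFP91-WT) or with 1 µg/ml doxycycline for 96 h (ZFP91-KO), again with 3 libraries in each of 4 groups. The effects of doxycycline and of Cas9 cutting cannot be told apart in this design. A second RNA-seq experiment compared the empty vector with a vector for CSNK2B, the regulatory subunit of casein kinase 2, in SU-DHL-1 and in KI-JK, 3 libraries per group. SU-DHL-1 was grown in 10% serum and KI-JK in 20%. The labels do not say that parental or vector replicates came from separate cultures, so p-values there measure the spread between these libraries, which may be technical. The 38 ChIP-seq samples were not analysed here.

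In RefSeq on GRCh38.p14, IFITM2 spans chr11:307816-309395 and IFITM1 spans chr11:314040-315272, both on the plus strand. IFITM3 spans chr11:319676-320860 on the minus strand. The 250 bases before the start of IFITM1 (chr11:313790-314039, plus strand) and of IFITM3 (chr11:320861-321110, minus strand) are printed from RefSeq because the RNA of these neighbouring genes differed by very unlike amounts between regrown and parental cells. Capitals mark the interferon-stimulated response element (ISRE) core GAAANNGAAA, letters bound by proteins of the IRF family, which was searched on both strands in a 300-base window that also holds the first 50 bases of the gene.
IFITM1: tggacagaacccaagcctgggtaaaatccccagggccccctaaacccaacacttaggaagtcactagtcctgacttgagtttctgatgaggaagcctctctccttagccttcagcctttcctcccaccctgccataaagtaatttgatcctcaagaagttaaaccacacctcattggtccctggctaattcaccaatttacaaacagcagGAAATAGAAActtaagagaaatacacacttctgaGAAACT
IFITM3: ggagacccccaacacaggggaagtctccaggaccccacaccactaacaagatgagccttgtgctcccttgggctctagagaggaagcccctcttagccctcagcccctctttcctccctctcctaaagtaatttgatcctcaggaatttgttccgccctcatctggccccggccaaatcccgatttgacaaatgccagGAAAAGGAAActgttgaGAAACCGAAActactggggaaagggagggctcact

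Both windows held 2 ISRE core matches. In IFITM1, GAAATAGAAA lay 40 to 31 bases before the start, and GAAACTGAAA began 6 bases before the start and ran 4 bases past it. In IFITM3, GAAAAGGAAA lay 52 to 43 bases and GAAACCGAAA 35 to 26 bases before the start. Of 35116 RefSeq promoters of the same length, 1255 (3.57%) held at least 1 match and 91 (0.259%) held 2 or more. In a list of 60 interferon-induced genes, 50 of which had a promoter entry, 29 (58.0%) held a match and 15 (30%) held 2 or more. The longest run of letters common to both windows was TAAAGTAATTTGATCCTCA, 19 bases that began 116 bases before the start in IFITM1 and 127 bases before it in IFITM3. These matches are descriptions of sequence and do not show that a factor bound there.

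Library totals ran from 33467869 to 47199672 counts in PRO-seq, from 15387114 to 23052717 in the ZFP91 RNA-seq table, from 14444523 to 24115731 in SU-DHL-1 and from 23073232 to 28927808 in KI-JK with vectors. DGE was far shallower, from 41571 to 395827 counts, and the shallowest library was parental lenalidomide replicate 3. Markers of anaplastic large cell lymphoma summed to at least 2870 on the counts-per-million (CPM) scale, the count over the library total, in the PRO-seq and ZFP91 tables. Summed B cell markers were at most 0.789 CPM in the ZFP91 table with 3 of 5 at 0, and the 1 in PRO-seq gave 2.33 to 4.24 CPM. With vectors, lymphoma markers summed to 4330 to 4840 CPM in SU-DHL-1 and 5420 to 5890 CPM in KI-JK. B cell markers summed to at most 0.598 CPM in SU-DHL-1 and to 9.13 to 12.5 CPM in KI-JK. Myeloid markers summed to 17.7 to 21.3 CPM and 128 to 138 CPM, respectively. In cells given doxycycline, ZFP91 RNA was 85.8 to 91.7 CPM against 111 to 119 CPM without it in parental cells (log2 difference -0.34 ± 0.08 SE, adjusted p = 0.158), and 75.9 to 101 against 86.5 to 94.3 CPM in regrown cells (-0.12, adjusted p = 0.395). A guide RNA cuts the gene without removing its RNA, so these levels check the knockout only weakly. Here and below, a gene is called, or said to rise or fall, where its Benjamini-Hochberg adjusted p over all genes was under 0.05 in edgeR's quasi-likelihood test. CSNK2B RNA rose from a mean of 29.9 to 251 CPM in SU-DHL-1 and from 17.5 to 78.9 CPM in KI-JK with its vector.

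**Figure D1:**
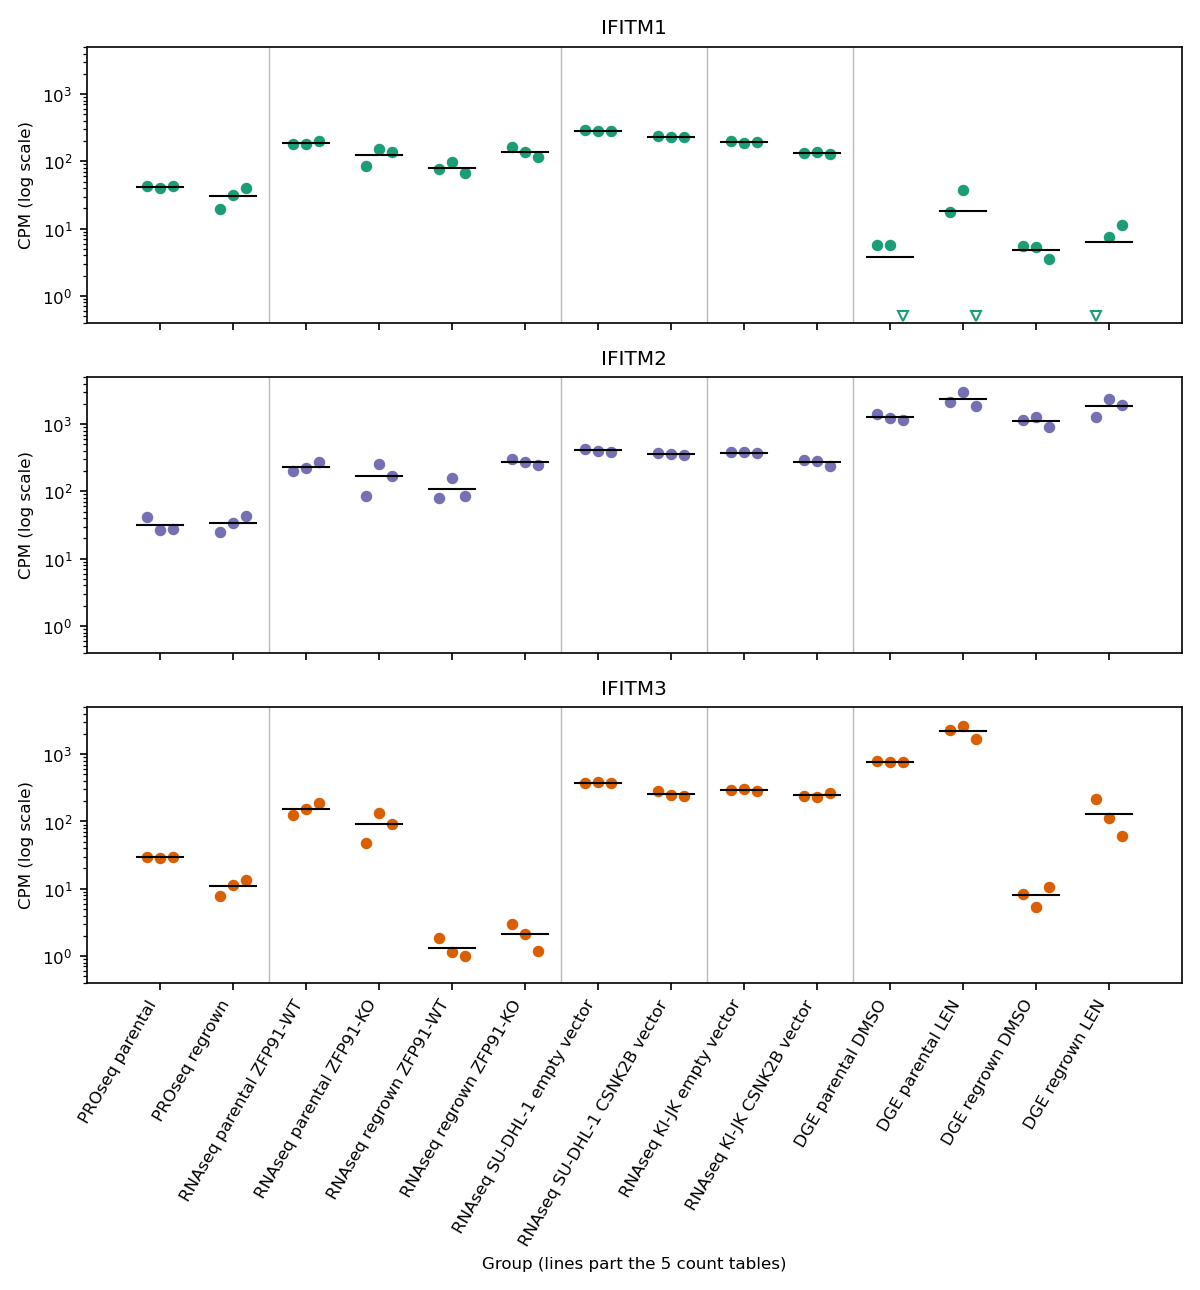
CPM (log scale) of IFITM1, IFITM2 and IFITM3 in each of the 42 libraries, by group, with vertical lines parting the 5 count tables; levels are comparable within a table only. IFITM3 is at most 3.04 CPM in the 6 regrown RNA-seq libraries and at least 47.4 CPM in the 6 parental ones of the same table, while IFITM1 and IFITM2 differ far less.

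IFITM3 RNA was nearly lost in regrown cells. Without doxycycline, the 3 parental RNA-seq libraries held 124, 151 and 189 CPM of IFITM3 (2158, 2563 and 3860 counts). The regrown pools held 1.83, 1.13 and 0.987 CPM (36, 22 and 17 counts). Every regrown pool was far below every parental library, and IFITM3 fell 108-fold (log2 change -6.76 ± 0.21 SE, adjusted p = 5.12e-11). Only 74 of the 13379 genes tested had a lower log2 change. These are bulk samples, in which fewer cells with the transcript and less transcript per cell cannot be told apart. Some summed marker levels were lower in the regrown pools too, among them those of the lymphoma itself. The 7 markers of anaplastic large cell lymphoma summed to 5070 to 5330 CPM in parental and 4100 to 4630 CPM in regrown libraries. The 6 myeloid markers summed to 15.8 to 18.0 and 7.03 to 8.65 CPM, and 7 T cell markers to 127 to 137 and 74 to 95 CPM. Sums of B cell and of epithelial and stromal markers overlapped. The myeloid and T cell sums rested mainly on CSF1R (mean 15.7 and 6.96 CPM) and on CD5 (95.6 and 49.6 CPM) with CD3D (35.8 and 36.5 CPM). LYZ, CD2 and CD4 were at 0 in these libraries. In PRO-seq the 2 myeloid markers in the table summed to 155 to 180 and 103 to 110 CPM, and the 2 T cell markers to 73.1 to 75.8 and 42.5 to 51.4 CPM. The 7 lymphoma markers gave 3590 to 4100 and 2870 to 3800 CPM there, which overlapped. The part of these differences in the IFITM3 result was not tested.

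The neighbouring paralogs fell much less. IFITM1 was 178, 179 and 200 CPM in parental cells and 75.8, 97.2 and 66.0 CPM in the regrown pools (log2 change -1.12 ± 0.12 SE, adjusted p = 6.72e-06). IFITM2 was 198, 225 and 276 CPM in parental cells and 79.9, 157 and 85.2 CPM in the pools (-1.02 ± 0.20 SE, adjusted p = 0.00101). Neither gene's groups overlapped, although regrown pool 2 came closest to the parental level for both. All 3 genes were called lower, in a comparison in which 43.7% of all genes were called. The summed counts of the family, which do not depend on how reads were divided among the paralogs, fell by 1.51 on the log2 scale (SE 0.17, adjusted p = 7.5e-06).

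These libraries also differed in a measure across all genes. The score, computed per library, is the median log2 deviation of the genes with the shortest spans (the lowest 25% of spans) minus that of the genes with the longest (the highest 25%), and it was -0.26, -0.13 and -0.45 in the regrown pools without doxycycline against -0.01, 0.04 and 0.24 in the parental libraries. IFITM genes are short. With the score as a covariate, IFITM3 remained lower (-6.06) and so did IFITM1 (-0.67), whereas IFITM2 no longer passed the threshold (-0.22, adjusted p = 0.538). The score did not overlap between regrown and parental libraries without doxycycline. Score and regrown state therefore cannot be told apart there, and the values with the covariate carry that limit.

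Transcription of IFITM3 was lower in regrown cells too, by a smaller factor than its RNA. PRO-seq over the IFITM3 interval (1078 bp) gave 30.0, 28.2 and 30.0 CPM in parental libraries and 7.80, 11.6 and 13.6 CPM in the regrown pools. The groups did not overlap, and IFITM3 fell 2.69-fold (log2 change -1.43 ± 0.18 SE, adjusted p = 2.69e-04). IFITM1 gave 43.0, 39.9 and 42.6 CPM in parental and 19.4, 31.8 and 40.0 CPM in regrown libraries, which overlapped narrowly at the top (-0.47 ± 0.20 SE, adjusted p = 0.106). IFITM2 gave 41.9, 27.1 and 27.4 CPM and then 24.98, 34.0 and 42.7 CPM, so that the groups overlapped fully (0.06 ± 0.21 SE, adjusted p = 0.856). Of the 3 genes, 1 was thus called, against 30.2% of all genes in this comparison.

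Without regrown pool 3, IFITM1 was called lower in PRO-seq (adjusted p = 0.00951), and the sign of the IFITM2 difference turned when parental replicate 2, parental replicate 3 or regrown pool 3 was left out. The call for IFITM3 held whichever library was left out, with log2 changes from -1.61 to -1.25. Per kilobase of interval, parental transcription was 38.1, 35.4 and 37.7 CPM for IFITM1, 35.1, 22.6 and 22.9 CPM for IFITM2 and 27.8, 26.1 and 27.8 CPM for IFITM3. In regrown cells the per-kilobase level of IFITM3 was 7.23, 10.7 and 12.6 CPM, below every value of the other 2 genes, which ran from 17.2 to 35.4 CPM for IFITM1 and from 20.9 to 35.7 CPM for IFITM2.

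The gap between RNA and transcription was tested directly, in a comparison added after seeing the data, by fitting the 6 RNA-seq libraries without doxycycline and the 6 PRO-seq libraries together. The RNA difference of IFITM3 exceeded its transcription difference by 5.46 on the log2 scale in the downward direction (-5.46 ± 0.32 SE, adjusted p = 2.39e-07). The same quantity was -1.20 ± 0.36 for IFITM2 (adjusted p = 0.031) and -0.76 ± 0.27 for IFITM1 (adjusted p = 0.0619), against a median of -0.17 over all genes. Thus 2 of the 3 genes were called, where 18.8% of all genes were. For the summed counts of the family the quantity was far smaller than for IFITM3, at -1.15 ± 0.305 SE (adjusted p = 0.0173). Its adjusted p reached 0.0548 among the alternatives. The sum does not depend on how reads were divided among the paralogs. In PRO-seq alone it was not called (-0.47 ± 0.18 SE, adjusted p = 0.0716). The IFITM2 call was lost in DESeq2 (adjusted p = 0.0745), with the replicate number as a block (-1.18, adjusted p = 0.0505) and in 8 of the 12 fits that left out 1 library, and the IFITM1 value passed the threshold when RNA-seq regrown pool 2 or PRO-seq regrown pool 1 was left out. The 2 assays used different cells, since the RNA-seq cells carried Cas9 and the guide vector, and their reads were counted by different pipelines. The part of these differences in the result was not tested.

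IFITM3 stayed low in regrown cells after ZFP91 targeting. With doxycycline, parental libraries held 47.4, 135 and 90.5 CPM of IFITM3 (730, 2645 and 1974 counts) and regrown pools 3.04, 2.10 and 1.19 CPM (70, 40 and 26 counts). The groups were again far apart, with IFITM3 43.1-fold lower in regrown cells (-5.43 ± 0.44 SE, adjusted p = 2.15e-05). IFITM1 was 84.7, 153 and 136 CPM in parental and 161, 140 and 118 CPM in regrown cells (0.16 ± 0.19 SE, adjusted p = 0.568). IFITM2 was 85.9, 251 and 168 CPM and then 306, 270 and 245 CPM (0.69 ± 0.30 SE, adjusted p = 0.102). For both paralogs the groups overlapped, so 1 of 3 genes was called here, where 38.4% of all genes were. Parental replicate 1 with doxycycline was the lowest library for every member in its group; without it the IFITM1 difference turned to -0.05 and IFITM2 was 0.38. The IFITM2 difference passed the threshold without parental replicate 2 with doxycycline (adjusted p = 0.00133), with no filter on low counts (0.70, adjusted p = 8.51e-11) and with the length score as covariate (0.72, adjusted p = 7.88e-10).

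Because reads can be shared between paralogs, the counts of IFITM3 were also expressed as a share of those of IFITM2 in the same library. In RNA-seq without doxycycline the share was 62.7 to 68.5% in parental and 0.723 to 2.30% in regrown cells. With doxycycline it was 53.8 to 55.3% and 0.486 to 0.993%. In PRO-seq it was 71.5 to 109% in parental and 31.2 to 34.0% in regrown cells. Regrown IFITM3 counts were 17 to 70 per library in RNA-seq and 261, 457 and 642 in PRO-seq. Some or many of them could be reads of IFITM2 or IFITM1 placed on IFITM3, which these tables cannot separate. The sum of the 3 genes, given above, was called lower in regrown RNA-seq without doxycycline. With doxycycline the sum did not differ between regrown and parental cells beyond its error (log2 difference 0.10, adjusted p = 0.786).

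**Figure D2:**
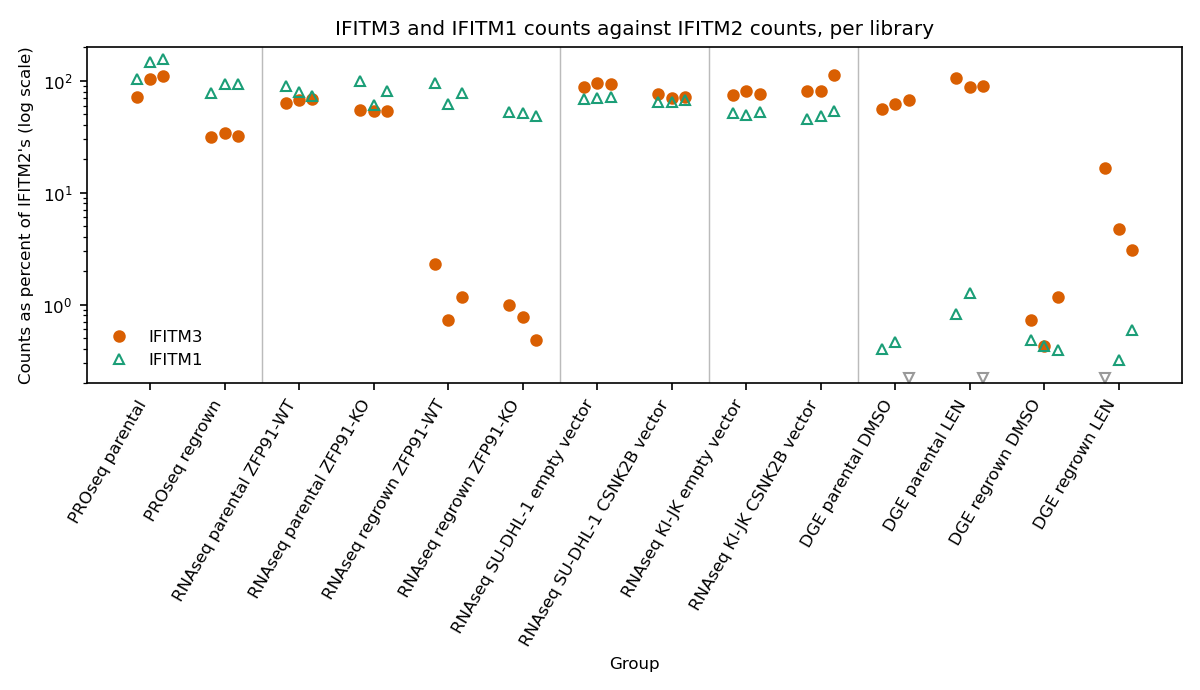
IFITM3 and IFITM1 counts as a percentage of the IFITM2 counts of the same library (log scale), 1 point per library, by group. The IFITM3 points of the regrown RNA-seq groups lie between 0.486% and 2.30%, against 53.8 to 68.5% in the parental ones, while PRO-seq separates the groups by a smaller distance.

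In the DGE libraries, whose IFITM3 values led to the choice of the family, IFITM3 was higher with lenalidomide than with DMSO in both kinds of cell, and the regrown level with the drug stayed below the parental level without it. Counts of IFITM3 were 275, 265 and 260 in parental cells with DMSO and 3, 2 and 3 in the regrown pools with DMSO. With lenalidomide they were 769, 1033 and 70 in parental cells, the last from the library with the smallest total, and 26, 15 and 21 in the pools. Scaled to library size, the 4 groups stood in the order parental lenalidomide (1684 to 2610 CPM), parental DMSO (764 to 790 CPM), regrown lenalidomide (60.1 to 213 CPM) and regrown DMSO (5.40 to 10.7 CPM), and no neighbours in this order overlapped.

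Counts pooled over 3 libraries gave a parental to regrown ratio of 97.9 with DMSO, with a 95% exact interval of 49.5 to 228, and of 23.6 (18.3 to 30.9) with lenalidomide. The lenalidomide to DMSO ratio was 3.12 (2.87 to 3.39) in parental cells and 12.9 (6.17 to 31.3) in the pools. Without regrown lenalidomide replicate 3, which had the lowest IFITM3 level of its group, the last became 20.3 (9.40 to 50.1) and the parental to regrown ratio with lenalidomide 15.0 (11.04 to 21.0). These intervals cover counting error only. Per-gene fits gave log2 differences of -6.56 ± 0.30 SE and -4.30 ± 0.32 SE for regrown against parental cells with DMSO and with lenalidomide. For lenalidomide against DMSO they were 1.58 ± 0.16 SE in parental and 3.84 ± 0.57 SE in regrown cells. The difference between these last 2 responses was 2.22 ± 0.56 SE. The shallow parental library changed the first of them little: without it the parental response was 1.72 ± 0.13 SE. For the summed counts of the family the responses were 1.21 ± 0.145 SE in parental and 0.88 ± 0.20 SE in regrown cells. Their difference was -0.325 ± 0.256 SE, opposite in sign to that of IFITM3. IFITM3 made up at most 1.16% of the sum in the regrown DMSO libraries.

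IFITM2 in DGE averaged 1272 CPM in parental cells with DMSO, 2331 CPM with lenalidomide, 1104 CPM in regrown cells with DMSO and 1873 CPM with lenalidomide. Its log2 difference between regrown and parental cells was -0.21 ± 0.16 SE with DMSO and -0.36 ± 0.22 SE with lenalidomide. Its log2 difference with lenalidomide was 0.95 ± 0.16 SE in parental and 0.78 ± 0.21 SE in regrown cells. IFITM2 was thus higher with the drug in both kinds of cell, and its ranges in regrown and parental cells overlapped under DMSO and under lenalidomide. IFITM1 had only 0 to 15 counts per DGE library and did not pass the filter on low counts; its pooled counts were 4 and 21 in parental cells and 5 and 5 in the pools, with DMSO and with lenalidomide. IFITM1 counts were at most 1.28% of IFITM2 counts in DGE, against 48.2 to 98.7% in the ZFP91 RNA-seq table. The share of all genes called was 6.21% for regrown against parental cells with DMSO, 2.78% with lenalidomide, 0.845% for lenalidomide in parental cells and 0.230% in regrown cells, and nothing is read from these for the members.

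In regrown cells IFITM1 and IFITM2 rose with ZFP91 targeting, a comparison that shares the libraries without doxycycline with those above. IFITM1 was 75.8, 97.2 and 66.0 CPM without and 161, 140 and 118 CPM with doxycycline (log2 change 0.77 ± 0.13 SE, adjusted p = 0.00141). IFITM2 went from 79.9, 157 and 85.2 CPM to 306, 270 and 245 CPM (1.31 ± 0.20 SE, adjusted p = 7.01e-04). Neither gene's groups overlapped. IFITM3 was 1.83, 1.13 and 0.987 CPM without and 3.04, 2.10 and 1.19 CPM with doxycycline, overlapping ranges with a log2 difference of 0.63 ± 0.43 SE (adjusted p = 0.292). So 2 of 3 genes were called in a comparison where 31.9% of all genes were.

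The length score moved with this comparison: it was -0.26, -0.13 and -0.45 in the regrown pools without and 0.15, 0.15 and 0.07 with doxycycline. With the score as a covariate, the differences became 0.02 for IFITM1 (adjusted p = 0.985), 0.30 for IFITM2 (adjusted p = 0.78) and -0.20 for IFITM3 (adjusted p = 0.973), and 0 of the 4186 genes stayed called. The score and the doxycycline groups do not overlap, so the 2 cannot be told apart in the regrown pools.

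In parental cells the 3 genes had lower values with doxycycline, and none passed the threshold. IFITM1 differed by -0.54 ± 0.18 SE (adjusted p = 0.412), IFITM2 by -0.44 ± 0.31 SE (adjusted p = 0.79) and IFITM3 by -0.73 ± 0.31 SE (adjusted p = 0.577). Here 0 of 3 genes and 0.427% of all genes were called by edgeR, while 1117 genes had an unadjusted p under 0.05, and DESeq2 called 198 genes, none of them a member. Replicate 1 with doxycycline had the lowest level of each gene (84.7, 85.9 and 47.4 CPM), and without it the differences were -0.33, -0.12 and -0.43. All 3 genes were called lower when no filter on low counts was used (adjusted p = 1.1e-04, 0.00642 and 8.28e-09) and when the length score was a covariate (adjusted p = 4.27e-08, 5.66e-08 and 1.22e-11). The score was -0.19, 0.36 and 0.10 in these 3 libraries with doxycycline.

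The responses of regrown and parental cells to ZFP91 targeting differed for IFITM1 (regrown minus parental 1.30 ± 0.25 SE on the log2 scale, adjusted p = 0.0238) and for IFITM2 (1.74 ± 0.42 SE, adjusted p = 0.0283). For IFITM3 the difference was 1.35 ± 0.59 SE (adjusted p = 0.141). In this test 9.81% of all genes were called, and 2 of the 3 members. The length score, which moved with doxycycline in the regrown pools, was not entered as a covariate in this test. Both calls were lost in 7 of the 12 fits that left out 1 library, with adjusted p up to 0.0865 for IFITM1 and 0.0885 for IFITM2; the number of all genes called in those 12 fits ran from 0 to 3355. IFITM3 passed without parental replicate 2 with doxycycline (adjusted p = 0.0146).

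With the CSNK2B vector, all 3 genes fell in both cell lines. In SU-DHL-1, IFITM3 was 376, 384 and 367 CPM with the empty vector and 279, 249 and 243 CPM with CSNK2B (log2 change -0.55 ± 0.04 SE, adjusted p = 3.35e-09). IFITM1 went from 294, 282 and 280 CPM to 238, 226 and 230 CPM (-0.31 ± 0.04 SE, adjusted p = 5.08e-06), and IFITM2 from 427, 401 and 391 CPM to 367, 354 and 342 CPM (-0.20 ± 0.04 SE, adjusted p = 0.00168). No groups overlapped, and 3 of 3 genes were called where 6.74% of all genes were.

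In KI-JK, IFITM1 fell from 201, 187 and 194 CPM to 133, 139 and 129 CPM (-0.52 ± 0.04 SE, adjusted p = 3.9e-09). IFITM2 fell from 387, 379 and 368 CPM to 295, 285 and 239 CPM (-0.45 ± 0.05 SE, adjusted p = 1.07e-06). IFITM3 fell from 288, 306 and 281 CPM to 239, 231 and 268 CPM (-0.23 ± 0.05 SE, adjusted p = 4.57e-04). The groups did not overlap for any of them, and 3 of 3 genes were called where 35.7% of all genes were. IFITM3 was at 231 CPM or more with CSNK2B in both lines. Levels are comparable within a table only, so these are not set against the regrown libraries. Whether CSNK2B bears on the IFITM3 level of regrown cells was not tested.

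The order of the members by size of response differed between the lines. The response of KI-JK minus that of SU-DHL-1 was 0.34 ± 0.07 SE for IFITM3 (adjusted p = 0.00101), -0.20 ± 0.06 SE for IFITM1 (adjusted p = 0.0175) and -0.23 ± 0.08 SE for IFITM2 (adjusted p = 0.0304). IFITM3 therefore fell less in KI-JK than in SU-DHL-1, and the other 2 genes fell more. All 3 genes were called, where 19.2% of all genes were. The IFITM2 call was lost with DESeq2 (adjusted p = 0.125) and in 5 of 12 fits without 1 library, and the IFITM1 call in 2 of them. The summed family did not differ between the lines in its response beyond its error (-0.03 ± 0.06 SE, adjusted p = 0.811). The lines also differed in serum and in the CSNK2B level reached, and the part of either in these differences was not tested.

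**Figure D3:**
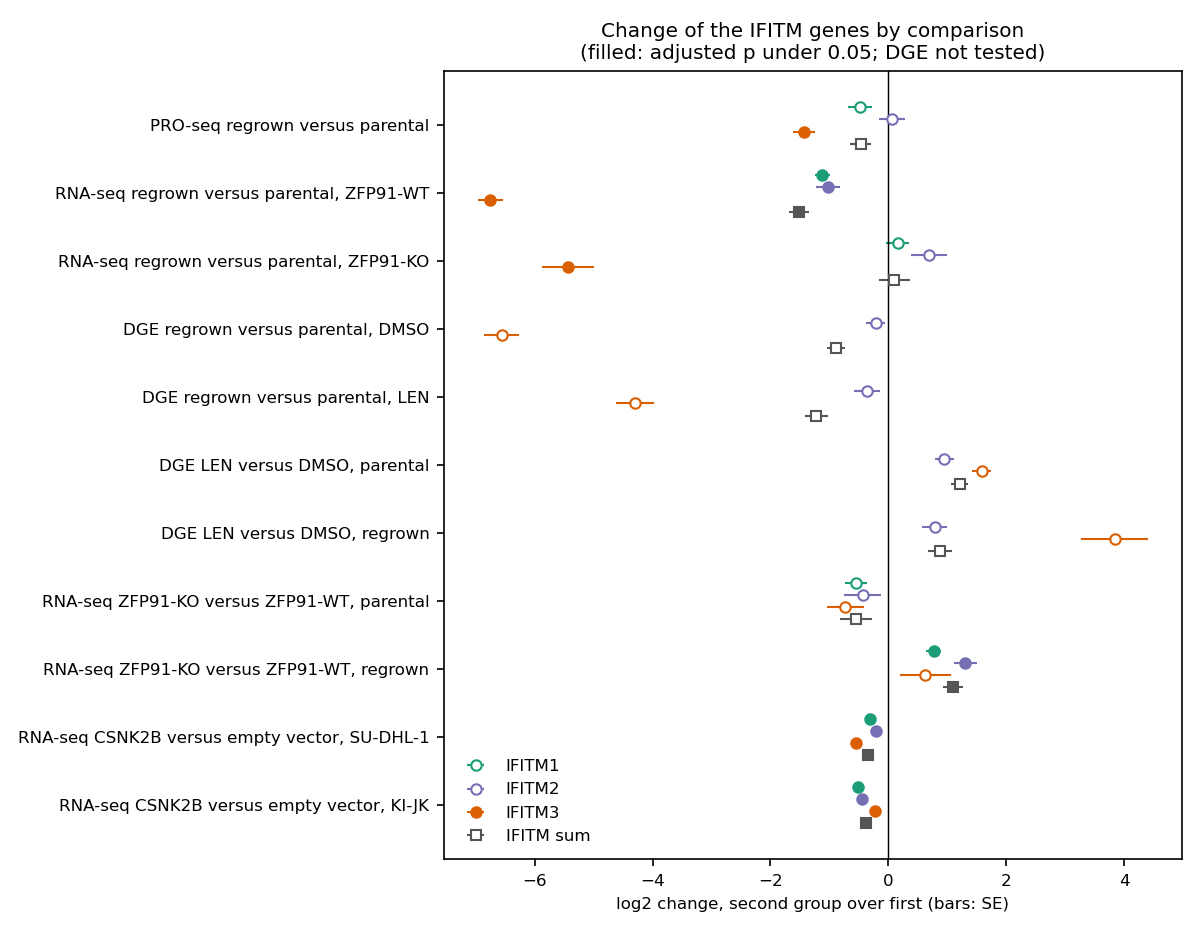
Log2 difference of each IFITM gene in each comparison, second group over first, with bars of 1 SE; filled symbols passed an adjusted p of 0.05 and the DGE comparisons carry no test. IFITM3 lies at -6.76 and -5.43 in the regrown against parental RNA-seq comparisons and at -1.43 in PRO-seq, while its value with CSNK2B is -0.55 in SU-DHL-1 and -0.23 in KI-JK.

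Other genes of the interferon pathway moved in both directions in regrown cells. They are given from lists of ligands, receptors with their signalling proteins, interferon-induced genes and IFITM partners. Of the ligands, only IFNG, which encodes interferon gamma, was tested in PRO-seq, where it fell from a mean of 2.46 to 0.186 CPM (-3.68, adjusted p = 6.6e-05). Of 19 receptor and signalling genes, 6 fell and 0 rose in PRO-seq, where 16.2% of all genes fell and 14% rose. Among them were the interferon gamma receptor chain IFNGR1 (-2.24) and IRF9 (-0.47). In RNA-seq without doxycycline, 5 of 18 fell and 1 rose, against 21.1% and 22.6% of all genes, with IFNGR1 down from 214 to 46.0 CPM (-2.12, adjusted p = 1.66e-09), IRF3 at -0.55 and the kinase JAK1 at 0.46. IFNGR1 was also called lower in DGE with DMSO (-1.48, adjusted p = 0.00577) and with lenalidomide (-1.85, adjusted p = 0.0206).

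Among interferon-induced genes other than the members, more rose than fell. In RNA-seq without doxycycline, 26 of the 54 genes tested rose and 8 fell. The median log2 change was 0.31 against 0.00 over all genes, of which 22.6% rose and 21.1% fell. These counts come from the fit without the length score, with which the genes called in this comparison went from 5850 to 2607. HERC6, a HERC-family ubiquitin ligase, rose from 0.467 to 8.50 CPM. The antiviral oligoadenylate synthetase OAS3 fell from 8.86 to 0.0194 CPM, and the immunoproteasome subunit PSMB8 fell from 118 to 57.0 CPM. PRO-seq showed 13 of 52 higher and 1 lower, the latter being OAS3 (-3.18), against 14% and 16.2% of all genes. IFIT5 (1.79) and DTX3L (0.74) were among those that rose. With doxycycline, 16 of 55 were higher and 8 lower in regrown cells, against 18.6% and 19.8% of all genes, among them OAS3 (-7.78), the peptide transporter TAP1 (-0.92) and HERC6 (3.76). In DGE with DMSO 0 of 27 were called by edgeR or by DESeq2, 8 having an unadjusted p under 0.05, where edgeR called 6.21% of all genes. The smallest p was that of SHISA5 (0.63, adjusted p = 0.0536). With lenalidomide 1 of 25 was called, SAMD9L (-1.47, adjusted p = 0.0314), where 2.78% of all genes were.

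With ZFP91 targeting in regrown cells, where IFITM1 and IFITM2 rose, more of the interferon-induced list fell than rose. Of its 52 tested genes, 5 rose and 15 fell, against 16.3% and 15.7% of all genes, with a median of -0.13 against 0.00. With the length score as a covariate, 0 of the 4186 genes called in this comparison stayed called. Score and doxycycline cannot be told apart there, and that limit holds for the list and for the members alike. SAMD9 fell (-0.79), and the tetherin gene BST2 (0.61) and the scramblase PLSCR1 (0.53) rose. No gene of the list was called in parental cells by edgeR or DESeq2 (0 of 54, 4 having an unadjusted p under 0.05), where edgeR called 0.427% of all genes. IFIT3 had the smallest p there (0.54, adjusted p = 0.374). With CSNK2B, 5 of 55 fell and 0 rose in SU-DHL-1, led by SAMD9L (-0.34), SAMD9 (-0.28) and the guanylate-binding protein gene GBP1 (-0.33), against 3.34% and 3.39% of all genes. In KI-JK, 20 of 53 fell and 7 rose, led by GBP2 (-0.62), OAS2 (-0.40) and HELZ2 (-0.37), against 17.3% and 18.4% of all genes. In SU-DHL-1 IFNG also fell (2.83 to 1.21 CPM, adjusted p = 0.00101) and IFNGR1 by 0.15. In KI-JK the interferon signalling genes STAT2 (-0.53) and TYK2 (-0.30) fell and the phosphatase gene PTPN2 rose (0.19). With lenalidomide against DMSO, edgeR and DESeq2 called 0 of 27 in parental and 0 of 26 in regrown DGE libraries (4 and 0 at an unadjusted p under 0.05). Of all genes, edgeR called only 0.845% and 0.23% there, so nothing is read from these counts. SAMD9L (0.93, adjusted p = 0.0954) and PLSCR1 (0.57, adjusted p = 0.997) had the smallest p.

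**Figure D4:**
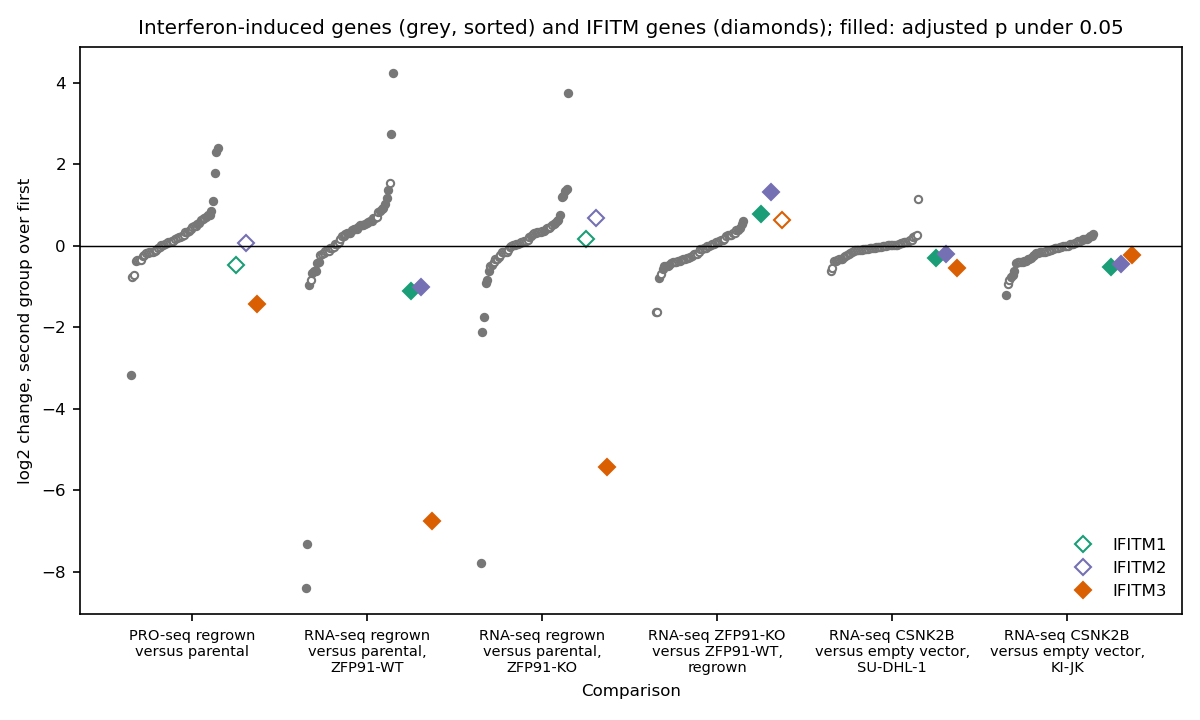
Log2 change of each tested gene of the interferon-induced list (grey, sorted within each comparison) beside the 3 IFITM genes (diamonds), filled where the adjusted p was under 0.05. In regrown against parental RNA-seq the list has its median at 0.31, and IFITM3 at -6.76 lies far below it, next to OAS3 at -8.41.

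Genes of IFITM partners and modifying enzymes were called higher or not at all in regrown cells without doxycycline. Of them, 2 of 9 rose in PRO-seq and 3 of 9 in RNA-seq without doxycycline, and 0 fell in either, where 14% and 22.6% of all genes rose. ABHD16A, which encodes a depalmitoylating lipase that acts on IFITM proteins, rose in both (1.55 and 2.15), and the protease ZMPSTE24, a cofactor of IFITM proteins, rose in RNA-seq (0.56). The palmitoyltransferase gene ZDHHC20 rose in RNA-seq (0.29). With ZFP91 targeting in regrown cells 1 of 8 rose, CD81 (0.21), and 2 fell, ZDHHC20 (-0.32) and the methyltransferase gene SETD7 (-0.26), where 16.3% of all genes rose and 15.7% fell. These calls, too, come from the fit without the length score. With CSNK2B 0 of 9 were called in SU-DHL-1 by edgeR or DESeq2 (3 at an unadjusted p under 0.05), where edgeR called 6.74% of all genes. The smallest p was that of CAV1 (-1.30, adjusted p = 0.0678). In KI-JK 6 of 9 rose and 0 fell, where 18.4% of all genes rose and 17.3% fell, among them ZMPSTE24 (0.64), SETD7 (0.25) and VCP (0.18). Of the other family members, IFITM10 lies more than a megabase away (chr11:1732406-1750595), and its PRO-seq signal fell from a mean of 14.03 to 8.62 CPM (-0.71, adjusted p = 0.0177). IFITM5 and IFITM10 did not pass the filter in any RNA-seq comparison.

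Of the genes within 10 places of the locus on either side, 10 were tested in PRO-seq, and 1 was higher and 0 lower in regrown cells, where 14% of all genes were higher and 16.2% lower. The one was SIGIRR (1.61, adjusted p = 0.00382), an inhibitor of interleukin-1 receptor signalling. In RNA-seq without doxycycline, 1 of 9 was higher, again SIGIRR (1.95), and 3 were lower, among them PKP3 (-0.79) and PSMD13 (-0.29). That is close to the share of all genes called in this comparison, 43.7%. A noncoding gene on the opposite strand, AC136475.1 (chr11:318192-325631), covers all of IFITM3. Its PRO-seq level was 52.9 to 62.6 CPM in parental and 34.2 to 61.7 CPM in regrown cells (-0.29 ± 0.17 SE, adjusted p = 0.242), and its RNA-seq level was at most 2.11 CPM in the libraries without doxycycline. Between IFITM2 and IFITM1 lies AC136475.2, whose PRO-seq signal fell (-0.73 ± 0.21 SE, adjusted p = 0.0225). Whether the RNA-seq counting used strand is not given in the sources used here, so reads of IFITM3 and of AC136475.1 may not be told apart there.

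**Figure D5:**
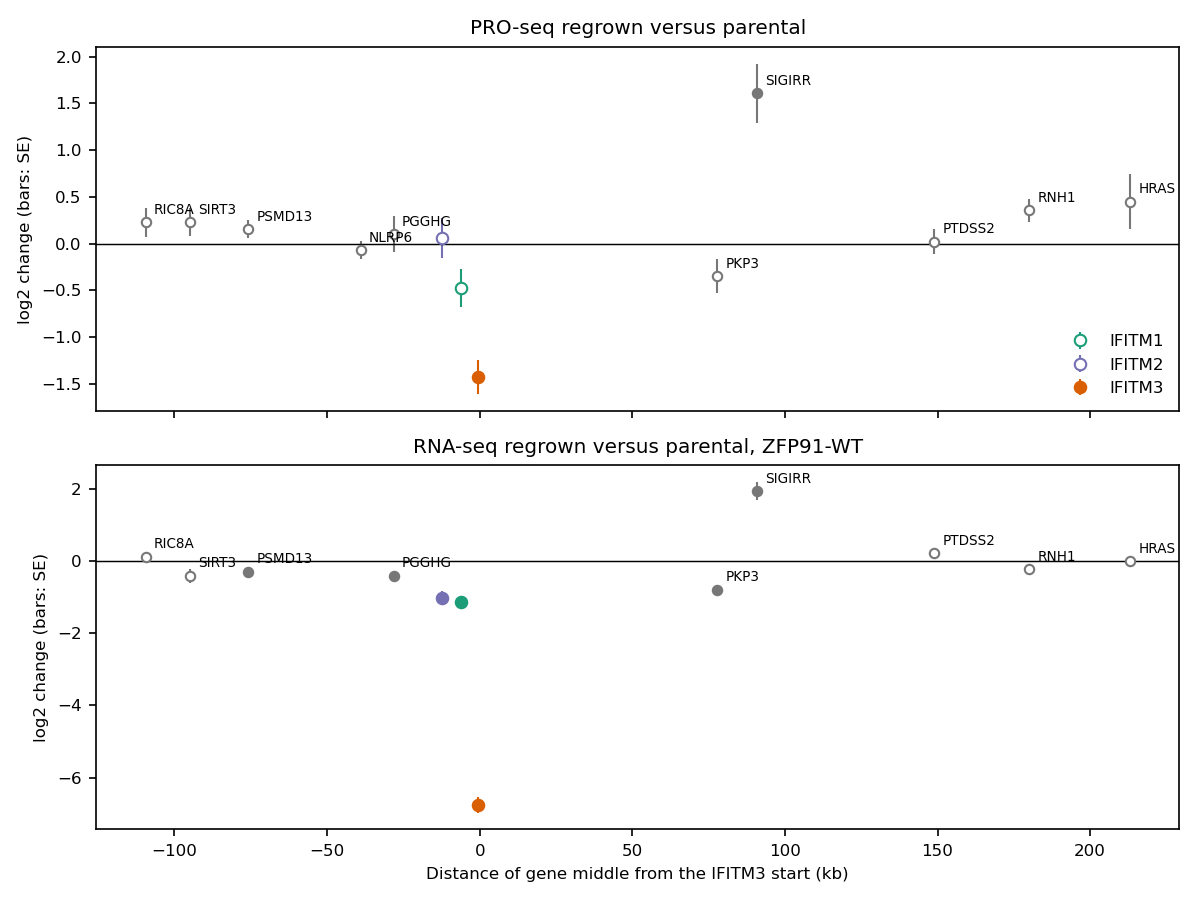
Log2 change of tested genes around the locus, regrown over parental, against the distance of the gene's middle from the IFITM3 start in kilobases, for PRO-seq and for RNA-seq without doxycycline, with bars of 1 SE. IFITM3 at -1.43 and -6.76 is the lowest point of each panel, and SIGIRR is the one neighbour called higher in both.

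Genes whose group means over the 14 groups lay nearest to IFITM3, among 5948 genes that passed the filter in every table, were CD163 (root mean square difference 0.85 on the log2 scale), HMGN5 (0.87) and LTBR (0.95), against a median of 2.23 over the candidates. Nearest to IFITM2 were TMEM60 (0.18), MGST3 (0.19) and TXNDC17 (0.20), against a median of 0.45. Nearest to IFITM1, which itself failed the filter in DGE, were DPM3 (0.16), LEPROT (0.17) and EXTL2 (0.17), against a median of 0.40. The root mean square variation of the members themselves over the groups was 2.21 for IFITM3, 0.38 for IFITM2 and 0.34 for IFITM1.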

How the data were processed

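Per the labels' protocols and the submitters' processing notes, the authors deposited gene counts for 42 of the 80 samples. The deposited counts came from cutadapt 1.14, Bowtie 1.2.2 and featureCounts 1.6.2 on hg38 for PRO-seq, from Bowtie2 2.2.3 on hg19 for DGE and from STAR 2.6.1d on hg38 for RNA-seq. Settings for strand and for reads that match several places are not given in the sources used here, and they bear directly on near-identical paralogs. Whether duplicate molecules were collapsed in DGE is likewise not given.

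The counts were analysed as deposited with edgeR 4.0.16 in R 4.3.3, by filterByExpr, TMM scaling and the quasi-likelihood test, each comparison fitted on its own groups and each interaction on all 4. p-values were adjusted by Benjamini-Hochberg over all genes tested. The sum of the 3 members was fitted in the place of the 3 genes. The scripts were tested on simulated data. Exact intervals of count ratios have a 95% level and cover counting error only. Library totals are in the report, and no pair of libraries agreed within sampling noise.

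The members, the gene lists and the comparisons were chosen with earlier results of these data known. Named besides the members were, from each list and comparison, up to 3 called genes with the smallest p, or else the gene with the smallest p, the genes the design targets, the genes near the locus and the 3 genes nearest in pattern. One gene that this rule names is not reported here. Alternatives were scaling, filters, DESeq2 1.42.0, all groups in 1 fit, a score of short against long genes, each library left out and the replicate number as a block. The numbers pair regrown libraries of the same pool with each other. Whether they pair other libraries is not given in the labels. In no comparison did all 3 correlations of same-numbered libraries exceed 0.1. That includes the regrown pools with and without doxycycline (0.001, 0.019 and 0.057), so the correlations do not settle pairing. The main fits did not use it, and the replicate block among the alternatives did.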

Additional observations from a re-analysis of the deposited data

Results flagged for a closer look

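Several responses differed between groups under the same contrast by a test of the difference itself (edgeR's interaction term). The response to ZFP91 targeting with doxycycline, regrown minus parental, differed by 1.302 for IFITM1, by 1.735 for IFITM2 and by 1.637 for the summed family on the log2 scale (adjusted p = 0.0238, 0.0283 and 0.0245). The response to CSNK2B, KI-JK minus SU-DHL-1, differed by -0.199 for IFITM1, by -0.234 for IFITM2 and by 0.339 for IFITM3 (adjusted p = 0.0175, 0.0304 and 0.00101). The first 3 of these were lost in 7 of the 12 fits that left out 1 library, and they were not fitted with the length score as a covariate. No group has more than 3 libraries, so single libraries were not tested as outliers.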

How the results depend on the processing

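Of 584 alternatives over 40 tested values, 514 kept direction and side of the threshold, 44 lost the call, 19 gained it and 7 turned sign; of 210 for the fitted DGE values, 208 kept direction. IFITM3 kept direction and call in every alternative run for regrown against parental cells (RNA-seq both ways, PRO-seq, RNA minus PRO-seq) and for CSNK2B. Causes were not tested. With the length score, IFITM2 gave -0.22 in regrown against parental cells without and 0.72 with doxycycline; ZFP91 targeting gave 0.017, 0.30, -0.20 and 0.20 in regrown and -0.58, -0.54, -0.83 and -0.63 in parental cells for IFITM1, IFITM2, IFITM3 and their sum. With no filter, the last 4 were -0.55, -0.44, -0.73 and -0.54, IFITM2 with doxycycline was 0.70 and the IFITM3 interaction with ZFP91 targeting was 1.40. DESeq2 gave -0.48 for the PRO-seq sum, -0.23 for the IFITM2 interaction with CSNK2B and -1.09 for IFITM2 in RNA minus PRO-seq. The replicate block ended 1 call, IFITM2 in RNA minus PRO-seq (-1.18, adjusted p = 0.0505), and no other.

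Leaving out 1 library at a time gave these ranges. In PRO-seq they were -0.72 to -0.25 for IFITM1, -0.13 to 0.31 for IFITM2 and -0.68 to -0.28 for the sum. In regrown against parental cells with doxycycline they were -0.052 to 0.33, 0.38 to 1.10 and -0.17 to 0.43. The ZFP91 interaction gave 1.11 to 1.49, 1.44 to 2.15 and 1.37 to 1.97, and 0.98 to 1.76 for IFITM3. The CSNK2B interaction gave -0.25 to -0.16, -0.29 to -0.17 and -0.072 to 0.023. RNA minus PRO-seq gave -0.97 to -0.46, -1.62 to -0.94 and -1.47 to -0.88. The DGE interaction of IFITM2 was -0.35 to 0.14.

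Genes called moved by more than 1.5 times as follows. ZFP91 targeting in parental cells called 57, then 198 (DESeq2), 231 (no filter), 1200 (length score) and 0 to 110 without 1 library. In regrown cells it called 4186, then 0 (length score) and 2410 and 2464 without doxycycline replicates 1 and 2. Its interaction called 1399, then 2441 (DESeq2), 2333 (no filter) and 0 to 3355 without 1 library. Regrown against parental RNA-seq called 5850, then 2607 (length score), and PRO-seq 4973, then 3245 without parental replicate 2. CSNK2B in SU-DHL-1 called 925, then 582 without empty-vector replicate 1. DGE with DMSO called 369 and 240 (DESeq2), with lenalidomide 129, 82 (DESeq2) and 244 (4 groups), and lenalidomide 49, 30 (DESeq2), 31 (1 CPM), 28 (4 groups) and 105 without parental replicate 3; in regrown cells it called 13 and 20 (no filter). The pooled IFITM3 ratios, checked after seeing the data, ran from 15.0 to 32.4 for parental against regrown cells with lenalidomide and from 9.42 to 20.3 for lenalidomide in regrown cells without 1 library.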
